A study of Mus musculus with 4 samples.

Results

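Among cultured mouse spleen B cells, 2 of the 4 numbered single-cell libraries held few cells with Il10 mRNA, and those few Il10-positive cells are described here. A cell belonged to them if its barcode ended in 5 or 6 (libraries 5 and 6), if it held at least 1 Il10 unique molecular identifier (UMI, 1 captured mRNA molecule), and if it stayed under 5 UMIs of Ccl3 and Ccl4 together, under 5 UMIs of Jchain, and under 10 UMIs of 8 mitotic genes together (Mki67, Top2a, Birc5, Cenpf, Ube2c, Cdk1, Hmmr, and Tpx2). There were 509 such cells, 248 in library 5 and 261 in library 6, out of the 18534 cells in all libraries that passed the cell filter (1000 or more genes, mitochondrial UMIs below 10%). They were chosen by their Il10 UMIs, so the Il10 values below describe the choice and were not tested.

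The study profiled purified splenic B cells of wild-type (WT) mice after 2 kinds of culture. Bregs-CpG were kept for 3 days with CpG B ODN 1668, a synthetic DNA that is sensed by TLR9, and Bregs-TLR were Bregs-CpG that also received LPS, PMA, and ionomycin over the last 5 hours. Each culture had 2 samples, and nothing in the labels says whether they came from separate mice. The library numbers are not tied to the samples, so libraries 5 and 6 cannot be called either culture, they were not averaged as replicates, and no p-value is given anywhere. Where a gene has a pair of comparisons, the first is library 5 and the second library 6, and a single comparison or log2 ratio is from the summed UMIs of both. The intervals printed are exact 95% intervals that cover counting error only.

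IL-10 is a cytokine that dampens inflammatory responses, acting through a receptor of the Il10ra and Il10rb chains and the transcription factor STAT3. B cells that make it are known as regulatory B cells (Bregs). No single transcription factor is known to define them, and mouse IL-10–competent B cells have been described under several surface phenotypes, among them CD1d-high CD5+ cells and TIM-1+ cells. Prdm1, Irf4, Batf, Maf, Ahr, and Nfil3 are among the transcription factors known to act on Il10 in lymphocytes. On GRCm38 the gene (ENSMUSG00000016529) lies at chr1:131019845-131024974 on the plus strand.

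Library 5 held 4196 cells that passed and 44842982 UMIs, and library 6 held 4714 cells and 51636750 UMIs. Under the limits on Ccl3, Ccl4, Jchain, and the mitotic genes, 3794 and 4224 cells remained. Il10 was found in 6.54% (5.77% to 7.37%) of these cells in library 5 and in 6.18% (5.47% to 6.95%) in library 6. In libraries 7 and 8 the shares under the same limits were 68.5% and 69.7%. The Il10 level of these cells was 12.4 UMIs in every 1000000 UMIs of the group (CPM) in library 5 and 10.0 CPM in library 6, against 256 CPM in library 7 and 250 CPM in library 8. The level thus differed between libraries 6 and 7, which does not show that the barcodes were assigned to the right columns.

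Cells with more UMIs were more often Il10-positive. The Il10-positive cells had a median of 11165 UMIs and the Il10-0 cells of both libraries one of 8325 UMIs. In 5 equal classes of total UMIs, the share ran from 2.06% (1.42% to 2.88%) in the shallowest cells to 14.3% (12.6% to 16.1%) in the deepest. The Il10 level in CPM also differed between these classes, with 5.12 CPM in the shallowest and 15.3 CPM in the deepest cells. After each cell was thinned to 5000 UMIs, which left out 265 shallower cells of libraries 5 and 6, Il10 was found in 3.90% of cells in library 5, 3.40% in library 6, 56.5% in library 7, and 57.3% in library 8. No cell type known to lack Il10 was numerous enough here to give a background share, so the part of free RNA in these shares was not tested.

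The Il10 UMIs of these cells describe how they were chosen, and the splits of the cells by these UMIs further below are likewise a description only. Of the 509 cells, 329 (64.6%) held 1 Il10 UMI, 89 held 2, and 91 held 3 or more. A Poisson count in proportion to each cell's total UMIs would give 822 positive cells but only 3.58 cells with 3 or more UMIs. In library 5, 55 cells held 3 or more UMIs where that count gives 2.11, and in library 6 it was 36 cells where it gives 1.47. The highest cells held 10 UMIs in library 5 and 12 UMIs in library 6 (see the plot of Il10 UMIs per cell).

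**Figure D1:**
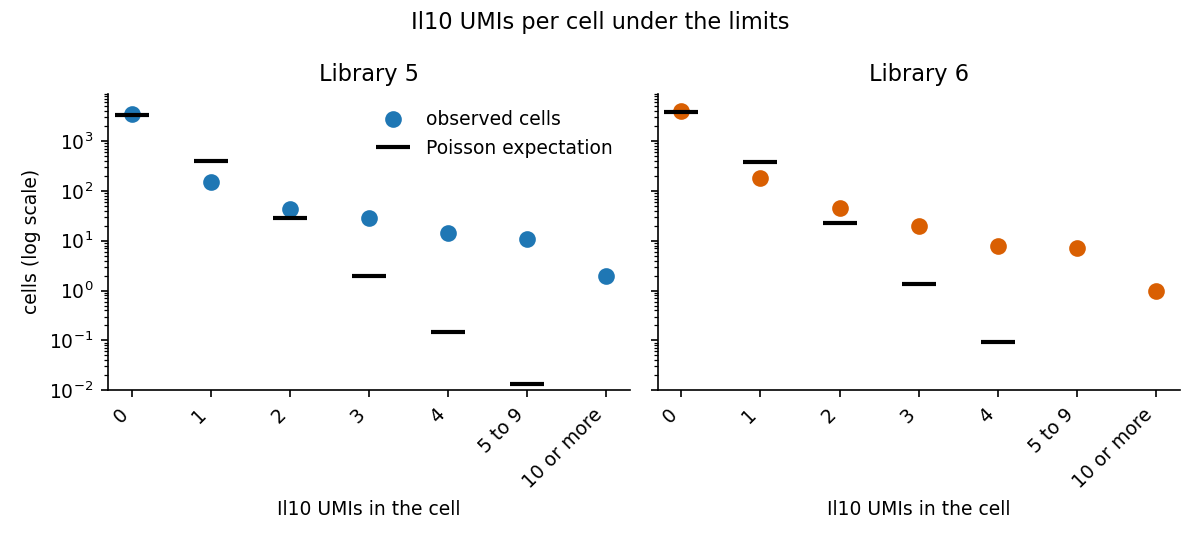
Cells of library 5 (left) and library 6 (right) under the limits by their number of Il10 UMIs (x axis), with the number of cells on a log scale (y axis). Points are observed cells, and bars are the numbers a Poisson count in proportion to total UMIs gives (bars under 0.01 cells are not drawn). Observed cells lie below the bars at 1 UMI and above them from 2 UMIs on, with 55 and 36 cells at 3 or more.

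The spread of Il10 over cells can be set beside that of other genes, also as a description only. The 881 Il10 UMIs of libraries 5 and 6 gave a dispersion, the variance over the Poisson expectation, of 2.66. For the 1005 genes whose UMI total lay within 1.2-fold of that of Il10, the median dispersion was 1.03. A median of 806 cells held a UMI of these genes. Genes at the upper end of that range, named after their values were seen, include Lig1 (2.64) and Mcm5 (2.40), which act in DNA replication, and Wnt10a (2.44).

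The limits on Ccl3, Ccl4, Jchain, and the mitotic genes set aside 156 further Il10-positive cells of libraries 5 and 6. Among the 254 cells with 5 or more UMIs of the chemokines Ccl3 and Ccl4, 72 (28.3%) held Il10, at a level of 38.4 CPM and a median depth of 14652.5 UMIs. Of 622 cells at or over the mitotic limit, 95 (15.3%) held Il10, at 11.2 CPM, and of 63 cells at or over the Jchain limit, 7 (11.1%) did. Few cells lay near the limits. At 4 and at 5 UMIs of Ccl3 and Ccl4 there were 6 Il10-positive cells each, at 9 and 10 mitotic UMIs there were 5 and 2, and at 4 and 5 Jchain UMIs there were 0. Of the 509 cells, 431 had no UMI of Ccl3 or Ccl4, 502 had none of Jchain, and 353 had none of the 8 mitotic genes.

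The Il10-positive cells were B cells by their markers. Of the 509 cells, 507 held UMIs of at least 3 of 4 B cell genes (Cd79a, Cd79b, Ms4a1, and Pax5). Of 11 T and NK cell genes, 9, among them Cd3e, Cd4, and Cd8a, had no UMI in any of the 509 cells, where 3 UMIs would amount to 0.423 CPM. The sum of this list was 30.5 CPM in library 5 and 28.8 CPM in library 6, against 20.7 and 24.7 CPM in the matched Il10-0 cells described next, and nearly all of it was Il7r, the IL-7 receptor chain that early B cells also use. Of 12 myeloid and dendritic genes, 6 were at 0, among them Lyz2, Csf1r, and S100a8, and the sum was 129 and 126 CPM against 132 and 142 CPM, with Cst3 the most abundant. All 5 mast cell and basophil genes were at 0. Of 4 globin genes, 3 were at 0 and Hbb-bt was at 1.51 and 3.70 CPM, against 6.99 and 4.18 CPM in matched cells.

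Barcodes of 2 of the 509 cells (0.393%) also occurred in library 7 or 8, as did those of 18 of 7509 Il10-0 cells (0.240%). The cell with the same barcode held no Il10 for one of them and 9 Il10 UMIs for the other. Without all of these Il10-positive and Il10-0 cells, 19 genes were at least 1.5-fold higher and 3 at least 1.5-fold lower by the comparison that follows.

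To ask what else set the Il10-positive cells apart, each was compared with the 5 Il10-0 cells of its own library that were closest in total UMIs. This gave 2545 matched cells, with a median of 11177 UMIs per cell against 11165, a median of 2532 detected genes against 2600, and 7.38% mitochondrial UMIs against 7.18%. Mean UMIs were 13039 in matched and 13928 in Il10-positive cells, since the deepest cells had few equals. UMIs were summed over cells, and a gene was followed if it reached 20 CPM on average over both groups. Of 4443 such genes, 18 were at least 1.5-fold higher in Il10-positive cells of library 5 and also in those of library 6 (0.405% of genes), and 3 were at least 1.5-fold lower in both (0.0675%). By any amount, 49.6% of these genes were higher in both libraries and 22.3% were lower in both, with a median log2 ratio of 0.07, and gene lists are to be read against these shares. Of the 18 higher genes 8 were under 20 CPM in matched cells and were followed only because of their level in Il10-positive cells (Apoe, Bop1, Fam241a, Gk, Iars, Mir155hg, Nfkbid, and Tfrc). Of the 3 lower genes, Rflnb was under 20 CPM in Il10-positive cells. Genes of the lists below could reach the 20 CPM limit through 1 group in the same way.

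Nfkbid, which encodes IκBNS, a nuclear member of the IκB family that modulates NF-κB target genes, is given first. It was at 30.5 CPM in Il10-positive and 12.7 CPM in matched cells of library 5, and at 26.7 and 10.7 CPM in library 6. Its log2 ratio over both libraries was 1.29 (1.04 to 1.54), and 27.7% of Il10-positive cells held a UMI of it against 12.4% of matched cells. The gene (ENSMUSG00000036931) lies at chr7:30421732-30428746 on the plus strand. Gadd45b, a stress-inducible gene, was at 92.2 CPM against 49.6 CPM in library 5 and at 86.5 CPM against 50.7 CPM in library 6 (log2 ratio 0.83, 0.69 to 0.96). Mir155hg, the host transcript of the activation-induced microRNA miR-155, was at 32.3 CPM against 19.8 CPM and at 32.5 CPM against 17.3 CPM (0.81, 0.59 to 1.03). Dusp2, a phosphatase that inactivates MAP kinases, was at 92.8 CPM against 61.7 CPM and at 99.97 CPM against 61.5 CPM (0.65, 0.52 to 0.78).

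Ccnd2, the D-type cyclin that mature B cells use to leave rest, was at 262 CPM in Il10-positive and 166 CPM in matched cells of library 5, and at 268 and 143 CPM in library 6 (log2 ratio 0.79, 0.71 to 0.86). Tfrc, the transferrin receptor through which dividing cells take up iron, was at 33.2 CPM against 16.02 CPM and at 31.2 CPM against 14.95 CPM (1.06, 0.83 to 1.28). A UMI of Tfrc was found in 26.5% of Il10-positive and 15.4% of matched cells. Timm8a1, a chaperone of mitochondrial protein import, was at 83.4 CPM against 42.1 CPM and at 71.9 CPM against 41.2 CPM (0.89, 0.75 to 1.04). Gnl3 (log2 ratio 0.67), Bop1 (0.66), and Nolc1 (0.63), which act in the nucleolus, Hspa9 (0.66), a mitochondrial HSP70, and Iars (0.76), which charges isoleucine onto its tRNA, were also above 1.5-fold in both libraries. The remaining genes were Lmo4 (0.67), a LIM-domain transcriptional cofactor, Marcksl1 (0.77), an actin-linked membrane protein, Rgcc (0.71), a cell cycle regulator, Gk (0.66), the glycerol kinase, Fam241a (0.77), and Apoe.

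Apoe, a lipid carrier, stood apart from the rest of these genes. It was at 32.6 CPM against 18.0 CPM in library 5 and at 43.6 CPM against 20.6 CPM in library 6, with a log2 ratio of 0.99 (0.78 to 1.20). However, a UMI of Apoe was found in 30 Il10-positive cells (5.89%) and in 6.40% of matched cells, and 5 of the Il10-positive cells held 74.0% of its 273 UMIs, with 82 UMIs in the highest. Without these 5 cells, and with the matched cells left whole, the log2 ratio was -0.93, and when the 25 highest matched cells were also left out it was 0.52. For the other 17 genes the same 5-cell step left log2 ratios of 0.48 (Bop1) to 1.11 (Nfkbid). The follow-up of single cells was added after the values were seen.

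Which of these genes passed depended on the choice of cells. Gadd45b, Tfrc, and Timm8a1 were at least 1.5-fold higher in both libraries also with 1 matched cell in place of 5, without the limits on the chemokine, Jchain, and mitotic UMIs, and with stricter limits. Bop1, Fam241a, Hspa9, Nolc1, and Rgcc passed under none of these 3 settings. Ccnd2 and Mir155hg did not pass with 1 matched cell, and Iars and Marcksl1 did not pass without the limits. Dusp2, Gk, Gnl3, Lmo4, and Apoe passed under 1 of the 3. Where a higher gene missed 1.5-fold in a library, its log2 ratio over both libraries was still 0.54 to 0.85. Nfkbid, with a log2 ratio of 1.38 against 1 matched cell, only fell under 20 CPM there, as Bop1 (0.81) did.

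Of the 3 lower genes, S1pr4 and Rflnb are described here. S1pr4, a receptor for sphingosine 1-phosphate, was at 32.3 CPM against 52.6 CPM and at 33.6 CPM against 54.7 CPM (-0.70, -0.90 to -0.50). Rflnb, which binds filamin, was at 14.8 CPM against 27.1 CPM and at 16.1 CPM against 28.4 CPM (-0.84, -1.14 to -0.55). Fewer Il10-positive than matched cells held a UMI of them, with 29.7% against 43.6% for S1pr4 and 12.8% against 22.8% for Rflnb. Without the limits S1pr4 missed 1.5-fold (-0.60) and Rflnb (-0.70) fell under 20 CPM, and with stricter limits S1pr4 missed 1.5-fold (-0.62) as well (see the plot of genes at least 1.5-fold apart).

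**Figure D2:**
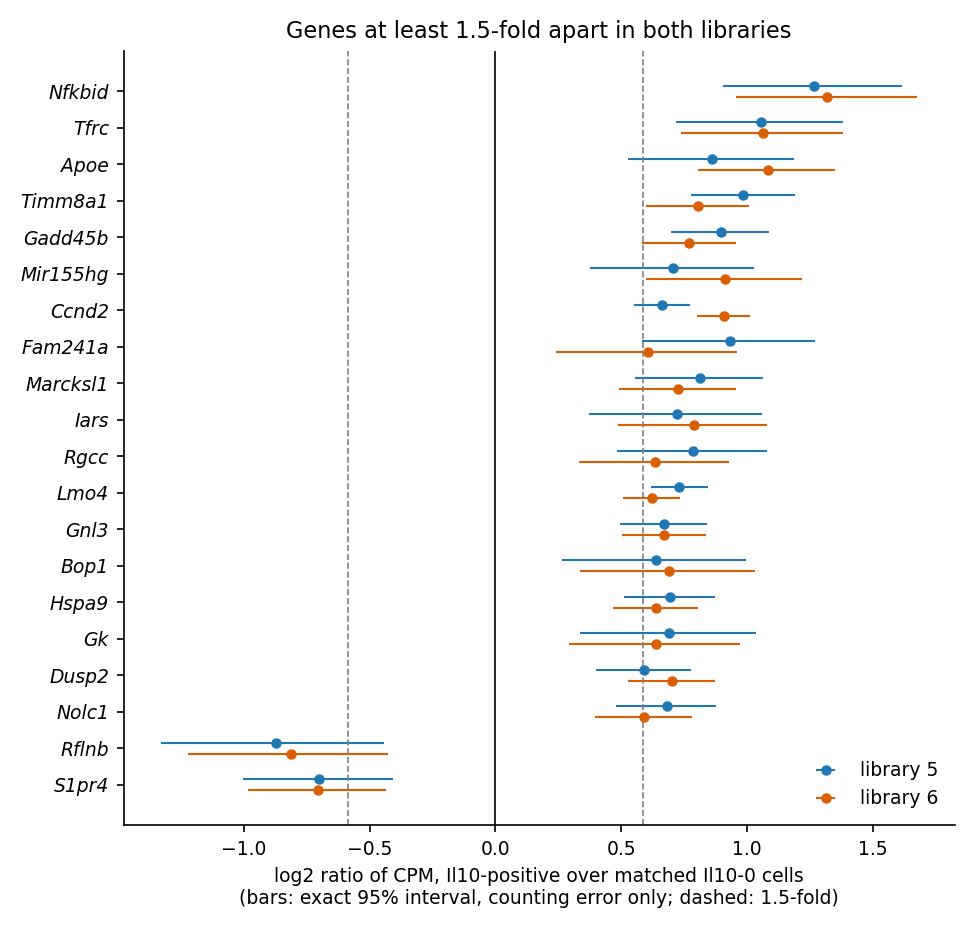
Log2 ratio of CPM in Il10-positive over matched Il10-0 cells (x axis) for 20 of the 21 genes (y axis) at least 1.5-fold apart in both libraries, with library 5 in blue and library 6 in orange. Bars are exact 95% intervals for counting error, and dashed lines mark 1.5-fold, the limit by which the genes were chosen. Nfkbid has the highest log2 ratio (1.29 over both libraries) and Rflnb the lowest (-0.84).

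Il10 receptor genes and transcription factors known to act on Il10 differed little as a list. Of 12 listed genes, 6 reached 20 CPM, of which 3 were higher in both libraries, 1 was lower, and none passed 1.5-fold, with a median log2 ratio of 0.11. Batf, an AP-1 family factor, was at 208 CPM against 139 CPM in library 5 and at 180 CPM against 132 CPM in library 6 (log2 ratio 0.51, 0.42 to 0.60). Bhlhe40 was at 31.1 CPM against 16.8 CPM in library 5 but at 25.9 CPM against 22.8 CPM in library 6, so that most of its ratio came from library 5. Stat3, which signals below the receptor, had a log2 ratio of 0.18, and Il10ra, the ligand-binding chain, one of -0.21. Il10rb was at 26.2 CPM in Il10-positive and 28.0 CPM in matched cells.

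Prdm1, the gene of BLIMP1 and a driver of plasma cell differentiation, averaged under the 20 CPM limit. It was at 13.9 CPM against 10.6 CPM in library 5 and at 25.7 CPM against 12.4 CPM in library 6, and 17.9% of Il10-positive and 11.3% of matched cells held a UMI of it. Irf4, its partner in that program, was at 4.23 CPM against 2.67 CPM and at 8.99 CPM against 2.01 CPM, and 5 cells held 43.8% of its 48 UMIs. For both genes the distance between the groups was larger in library 6. Nfil3 was at 10.7 CPM against 7.44 CPM over both libraries and Ahr at 1.41 CPM against 0.331 CPM, while Maf, at 3 UMIs, was at the limit of what can be counted. The list of plasma cell genes, which holds Prdm1 and Irf4 too, had 7 of 12 genes above 20 CPM, with 5 higher in both libraries, none lower, and a median log2 ratio of 0.08, next to the 0.07 of all genes. Xbp1 was at 82.5 CPM against 80.0 CPM in library 5 and at 108 CPM against 77.5 CPM in library 6, and Sdc1, the gene of CD138, was at 0.282 CPM.

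The neighbors of Il10 on chromosome 1 showed no common shift. Il20 and Il24, cytokine genes of the same family, had no UMI in Il10-positive or matched cells, and Il19 was at 0.141 CPM, which is under the level of 3 UMIs. Of the 8 listed neighbors, 2 reached 20 CPM. Mapkapk2, a kinase of the p38 pathway, was at 29.6 CPM against 24.8 CPM and at 31.2 CPM against 25.6 CPM. Fcmr, the IgM Fc receptor, was at 78.7 CPM in Il10-positive and 77.2 CPM in matched cells over both libraries. The list's median log2 ratio was 0.15, with 1 gene higher in both libraries and none lower.

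Surface markers that have been used for regulatory B cells were mostly scarce. Of 16 listed genes, 3 reached 20 CPM, with 2 higher in both libraries, 1 lower, and a median log2 ratio of 0.38. Cd24a was at 696 CPM against 532 CPM in library 5 and at 713 CPM against 523 CPM in library 6 (log2 ratio 0.42, 0.37 to 0.46), and Cd44, an adhesion receptor of activated lymphocytes, at 177 CPM against 136 CPM and at 182 CPM against 140 CPM. Cd38 was at 291 CPM against 314 CPM over both libraries. Havcr1, the gene of TIM-1, was below the limit with 11.8 CPM against 6.74 CPM in library 5 and 10.3 CPM against 4.93 CPM in library 6, and it was found in 11.4% of Il10-positive and 6.33% of matched cells. Cd1d1 was at 6.07 CPM against 6.03 CPM, Cd5 at 0.141 CPM, and Cd9 at 4.23 CPM against 1.99 CPM. In the marginal zone and B-1 list 2 of 10 genes reached 20 CPM, with Dtx1 higher (52.0 CPM against 44.1 CPM) and Plac8 lower (230 CPM against 284 CPM) in both libraries and a median log2 ratio of -0.03.

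Mature B cell genes differed by small amounts, and more of them were lower than higher, where 49.6% of all followed genes were higher and 22.3% lower in both libraries. All 14 listed genes reached 20 CPM, with 5 higher and 8 lower in both libraries, none of them past 1.5-fold, and a median log2 ratio of -0.04. Cd79a, a signaling chain of the B cell receptor, was at 3180 CPM in both groups, and Ms4a1, the gene of CD20, at 1639 CPM against 1537 CPM. Ly6d was at 6183 CPM against 5259 CPM (log2 ratio 0.23, 0.22 to 0.25), and Cd79b, the other signaling chain, at 1901 CPM against 2200 CPM (-0.21, -0.24 to -0.18). Levels in CPM serve to compare groups, not genes.

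Follicular and homing genes were lower as a list. Of 8 genes 7 reached 20 CPM, of which 5 were lower in both libraries and 2 higher, with 1 past 1.5-fold and a median log2 ratio of -0.40 against 0.07 for all genes. Klf2, a transcription factor of resting lymphocytes that drives S1pr1, was at 322 CPM against 439 CPM in library 5 and at 361 CPM against 464 CPM in library 6 (log2 ratio -0.40, -0.46 to -0.34). S1pr1, the receptor for leaving lymphoid organs, was at 23.0 CPM against 37.4 CPM and at 25.4 CPM against 36.2 CPM (-0.60, -0.84 to -0.37). Cd55 (log2 ratio -0.65), which restrains complement, and Ighd (-0.38), the IgD heavy chain of naive B cells, were lower as well. Against these, the chemokine receptors Ccr7 (0.32), which guides lymphocytes to T cell zones, and Cxcr5 (0.29), which guides B cells to follicles, were higher in both libraries.

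MHC class II genes were lower by small amounts. All 10 genes of the list reached 20 CPM, 9 were lower in both libraries, none was higher in both, and the median log2 ratio was -0.29 (-0.36 in library 5 and -0.23 in library 6). Ciita, the master transcriptional activator of these genes, was at 53.2 CPM against 79.3 CPM in library 5 and at 56.9 CPM against 85.0 CPM in library 6 (log2 ratio -0.58, -0.73 to -0.42). H2-DMa, which helps to load peptides, was at 145 CPM against 202 CPM over both libraries, H2-Aa at 1101 CPM against 1329 CPM, and Cd74, the invariant chain, at 6552 CPM against 7222 CPM. The exception was H2-DMb1 (33.7 CPM against 32.9 CPM), while the similar H2-DMb2 was at 133 CPM against 159 CPM. Whether reads are shared between these genes was not tested.

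Activation genes were higher as a list. All 8 immediate-early genes that reached 20 CPM, of 20 listed, were higher in both libraries, with a median log2 ratio of 0.35, and 1 of them, Dusp2, passed 1.5-fold. Of these 8, Myc was under 20 CPM in matched cells and was followed only because of its level in Il10-positive cells. Myc, a driver of growth, was at 26.3 CPM against 15.8 CPM in library 5 and at 22.5 CPM against 16.1 CPM in library 6 (log2 ratio 0.61, 0.35 to 0.86), and Nfkbia, the NF-κB inhibitor that NF-κB itself induces, at 972 CPM against 759 CPM and at 1016 CPM against 818 CPM. Ier2 (0.45), Junb (0.37), Cd69 (0.29), Egr1 (0.28), and Jun (0.26) were the others. Other genes of the list were scarce, with Tnf at 4.37 CPM against 2.74 CPM, Il2 at 0.705 CPM, and Nr4a2 and Nr4a3 at 0.

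In the activation and class switch list 7 of 10 genes reached 20 CPM, with 5 higher in both libraries, 1 lower, and a median log2 ratio of 0.32. Cd40, the receptor for T cell help, was at 70.7 CPM against 56.5 CPM, and Cd83 at 599 CPM against 507 CPM. Bcl2a1b, a survival gene with near-identical copies whose counts are uncertain, had a log2 ratio of 0.46. Heavy chain genes moved little. Of 8 listed, 3 reached 20 CPM, 2 of them lower in both libraries (Ighd and Ighg2b) and none higher, with a median log2 ratio of -0.24. Ighm was lower in library 5 (3218 CPM against 3350.3 CPM) and higher in library 6 (4015 CPM against 3473 CPM).

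Genes of the unfolded protein response, which raises the folding capacity of the endoplasmic reticulum, were nearly uniformly higher. Of 12 genes 11 reached 20 CPM and 10 were higher in both libraries, none was lower in both, and the median log2 ratio was 0.32 (0.31 in library 5 and 0.34 in library 6). The chaperone Hspa5 was at 492 CPM against 349 CPM in library 5 and at 549 CPM against 391 CPM in library 6 (log2 ratio 0.49, 0.44 to 0.55), and Hsp90b1 at 434 CPM against 329 CPM and at 502 CPM against 366 CPM (0.43, 0.38 to 0.49). Pdia4 was the exception, at 124 CPM in both groups. In glycolysis 9 of 12 genes reached 20 CPM, 8 were higher in both libraries and 1 lower, and the median log2 ratio was 0.20. Pfkp (0.43), a phosphofructokinase, and Ldha (0.32), the lactate dehydrogenase, led them, and Eno1 (-0.12) was lower. Hk2, the hexokinase that activated lymphocytes induce, averaged under 20 CPM but had a larger ratio, at 21.8 CPM against 10.1 CPM in library 5 and at 18.5 CPM against 7.51 CPM in library 6 (log2 ratio 1.20, 0.90 to 1.49).

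Of 14 DNA replication genes 7 reached 20 CPM, with 5 higher in both libraries, none lower in both, and a median log2 ratio of 0.20. The medians differed between the libraries, at 0.10 in library 5 and 0.34 in library 6. The median of both libraries also moved with the choice of cells, to 0.05 with stricter limits on the chemokine, Jchain, and mitotic UMIs and to 0.54 without matching. Mcm3, a helicase subunit, was at 38.4 CPM against 40.2 CPM in library 5 and at 57.9 CPM against 38.1 CPM in library 6. No gene of the mitosis list reached 20 CPM, and its 10 genes summed to 48.4 CPM in Il10-positive and 47.4 CPM in matched cells, with 8 mitotic genes limited in both groups by the choice of cells. In the interferon response list 6 of 12 genes reached 20 CPM, with 2 higher and 3 lower in both libraries and a median log2 ratio of -0.07. Isg15 was higher (log2 ratio 0.66, 0.45 to 0.86), at 42.0 CPM against 23.4 CPM in library 5 and 32.3 CPM against 23.3 CPM in library 6, and Samhd1 was lower (-0.37).

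Among other cytokines, Il6 was at 28.4 CPM against 19.0 CPM in library 5 but at 21.2 CPM against 20.3 CPM in library 6. Tgfb1, the gene of TGF-β1, was at 72.6 CPM in Il10-positive and 73.6 CPM in matched cells (log2 ratio -0.02, -0.16 to 0.12). Ltb, lymphotoxin β, was at 311 CPM against 437 CPM and at 359 CPM against 468 CPM (-0.43, -0.49 to -0.37), and Il12a was at 39.8 CPM against 44.2 CPM. Of the 15 listed cytokines these 4 reached 20 CPM, with 1 higher and 2 lower in both libraries and a median log2 ratio of -0.08, and 6 had no UMI, among them Ifng, Il4, and Il13. Ebi3 was at 11.4 CPM against 9.34 CPM. Of 8 chemokines other than Ccl3 and Ccl4, 7 had no UMI in Il10-positive cells and the list summed to 0.282 CPM.

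**Figure D3:**
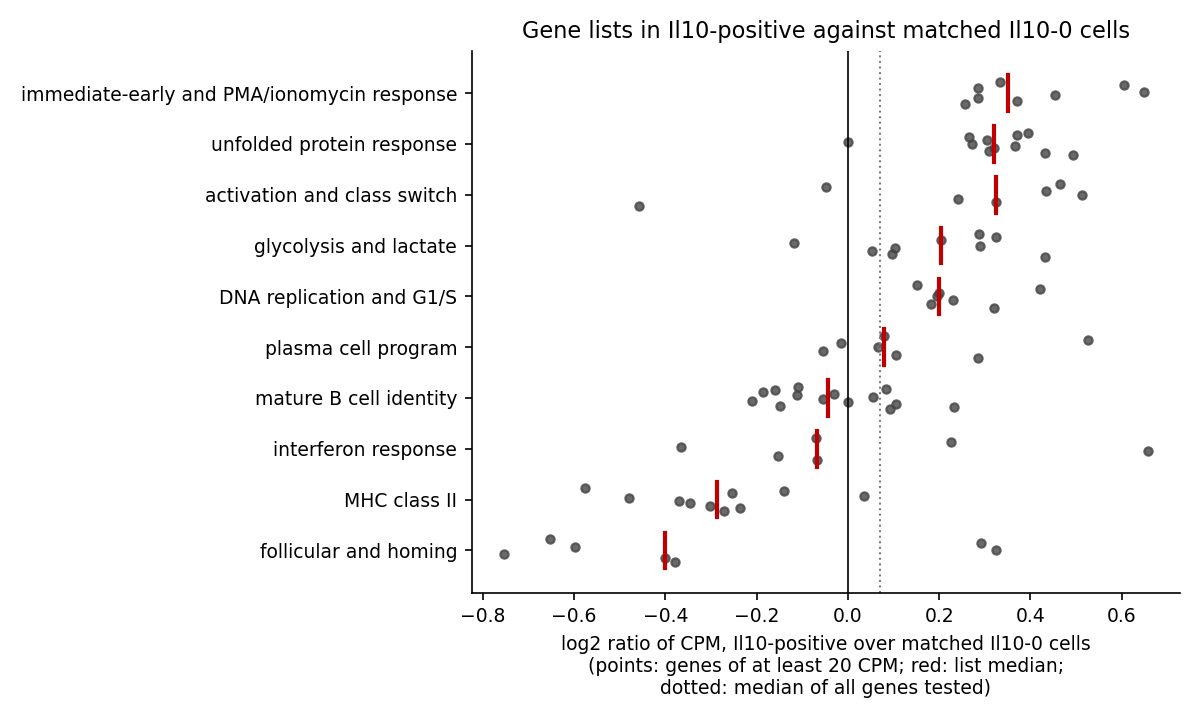
Log2 ratio of CPM in Il10-positive over matched Il10-0 cells of libraries 5 and 6 together (x axis) for genes of 10 lists (y axis). Each point is a gene of at least 20 CPM, red bars are list medians, and the dotted line is the median of all 4443 genes (0.07). Medians run from 0.35 for immediate-early genes to -0.40 for follicular and homing genes.

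For most of the 21 genes the difference was larger in cells with more Il10 UMIs. The Il10-positive cells were split by Il10 UMIs, and each set was compared with its own matched cells. For 16 of the 18 higher genes the ratio was greater at 3 or more Il10 UMIs than at 1, beside 68.3% of all followed genes that were higher in both libraries. For all 3 lower genes it was lower, beside 72.7% of those that were lower in both. Over all 4443 genes the ratio was greater at 3 or more in 53.7%. Because the 21 genes and the cells were chosen by these values, the counts and the ratios that follow are a description. The log2 ratio of Nfkbid was 1.00 (0.65 to 1.34) in cells with 1 Il10 UMI, 1.61 (1.10 to 2.12) with 2, and 1.72 (1.14 to 2.29) with 3 or more. Gadd45b went from 0.47 (0.29 to 0.66) to 1.30 (1.01 to 1.59) and 1.27 (0.99 to 1.55), and Timm8a1 from 0.63 (0.43 to 0.82) to 1.13 (0.80 to 1.44) and 1.37 (1.06 to 1.68).

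Further genes, chosen after their values were seen, give examples of both kinds of order. Hk2 had log2 ratios of 0.74 (0.30 to 1.16), 1.66 (0.95 to 2.34), and 1.77 (1.19 to 2.34) at 1, 2, and 3 or more Il10 UMIs. The chaperone Hspa5 was at 0.26 (0.19 to 0.33), 0.81 (0.69 to 0.92), and 0.83 (0.71 to 0.94). Klf2 was at -0.34 (-0.41 to -0.26), -0.46 (-0.62 to -0.31), and -0.58 (-0.73 to -0.43), and H2-Aa at -0.22 (-0.26 to -0.18), -0.33 (-0.41 to -0.24), and -0.40 (-0.48 to -0.32). Not every gene changed in 1 direction at each step, and Gadd45b above did not. The transcription factor Batf was at 0.49, 0.57, and 0.51, and Ccnd2 at 0.71, 1.04, and 0.79. Both were highest at 2 UMIs and little higher at 3 or more than at 1. Apoe was higher at 1 (0.94) and 2 (2.07) UMIs and lower at 3 or more (-1.07, -2.02 to -0.25).

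**Figure D4:**
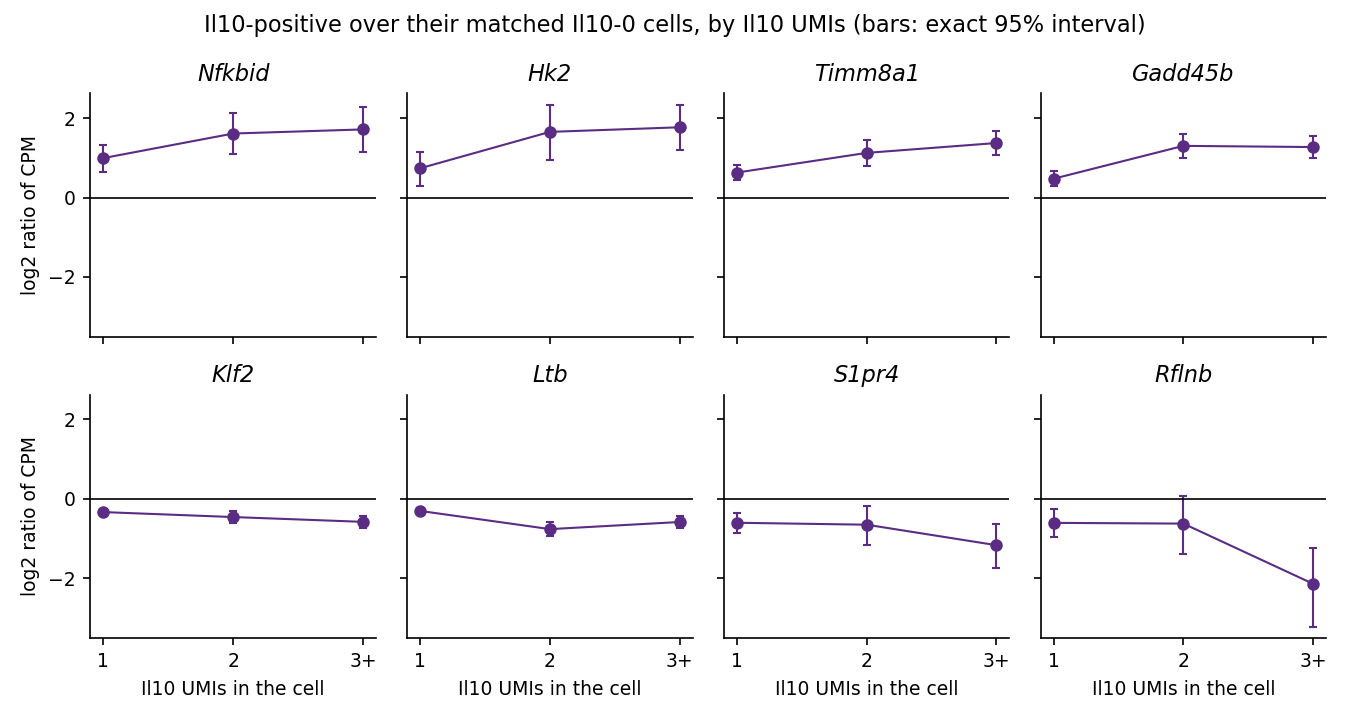
Log2 ratio of CPM in Il10-positive cells over their own matched Il10-0 cells (y axis) for 8 genes, by Il10 UMIs in the cell (x axis: 1, 2, and 3 or more, with 329, 89, and 91 cells). Bars are exact 95% intervals for counting error. The upper 4 genes lie above 0 and the lower 4 below 0 at each step, except that the interval of Rflnb at 2 UMIs reaches above 0.

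Within libraries 7 and 8, each of the 2448 Il10-0 cells was paired with 1 Il10-positive cell of like total UMIs, to see whether the 21 genes were apart there too. Of the 18 higher genes 8 were higher by any amount in both libraries 7 and 8, beside 37.7% of the 4651 genes that reached 20 CPM there, and 1, Rgcc, was at least 1.5-fold higher in both, beside 0.0645%. Rgcc was at 46.0 CPM in Il10-positive and 23.5 CPM in Il10-0 cells of libraries 7 and 8 (log2 ratio 0.97, 0.81 to 1.12), and Gadd45b had a log2 ratio of 0.49 (0.43 to 0.54). Of the 3 lower genes 2 were lower by any amount in both, beside 24.1%.

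Il10-positive cells of libraries 7 and 8 carried a far larger expression difference from Il10-0 cells of libraries 5 and 6. To place the 509 cells on that difference, the 50 genes highest and the 50 genes lowest in the 5457 Il10-positive cells of libraries 7 and 8 were taken, relative to those Il10-0 cells of libraries 5 and 6 that were not used as matched cells. The 50 high genes summed to 15008 CPM in Il10-positive cells of libraries 7 and 8 and to 1683 CPM in the unused Il10-0 cells. In the 509 cells they summed to 3141 CPM in library 5 and 2920 CPM in library 6, against 2174 and 2086 CPM in their matched cells. Of the 24 high genes that reached 20 CPM, 23 were higher in both libraries and 7 passed 1.5-fold. The 24 genes had a median log2 ratio of 0.58 over matched cells. Between libraries, over the unused Il10-0 cells, the 50 genes had a median of 3.08. That ratio was not matched on total UMIs and is the one by which the genes were picked, so the medians are not like measures. Among the 24 genes were Odc1 (log2 ratio 0.67), the rate-limiting enzyme of polyamine synthesis, Srm (0.56), which makes spermidine, Mthfd2 (0.70), a mitochondrial folate enzyme, and Ncl (0.50), nucleolin. These genes were 3.59, 3.38, 3.21, and 2.78 in that log2 ratio between libraries. Tfrc, Mir155hg, Cdca7, Hirip3, Psat1, and Shmt2 were under 20 CPM in matched cells and were followed only because of their level in Il10-positive cells. The count and the median of the 24 genes rest in part on them. Among the listed genes under the limit, Spp1 (-0.60), Hbb-bt (-1.04), Stat5a (-0.14), and Cinp (-0.08) had log2 ratios below 0 and the others above.

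The 50 low genes did not follow to that extent. They summed to 1137 CPM in Il10-positive cells of libraries 7 and 8 and to 17547 and 18151 CPM in the 509 cells, against 17362 and 17559 CPM in matched cells. Ly6d alone made up 6183 CPM in the 509 cells and 5259 CPM in matched cells, and without it the other 49 genes summed to 11384 CPM against 12097 CPM in library 5 and to 11951 CPM against 12305 CPM in library 6, so that the direction of the sum turned, a step added after the values were seen. Of the 50, 34 were lower and 11 higher in both libraries, and 1 passed 1.5-fold, with a median log2 ratio of -0.18. In the ratio between libraries by which these genes were picked, the median was -3.96, which is not a like measure. Ms4a1, at 32.1 CPM in Il10-positive cells of libraries 7 and 8, was at 1639 CPM in the 509 cells, and Klf2, at 5.85 CPM there, was at 343 CPM. The Il10-0 cells of libraries 7 and 8 were close to the Il10-positive ones of the same libraries on both lists, with 13730 CPM of the high and 1507 CPM of the low genes.

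Cell by cell, the high genes took a median of 0.222% of the UMIs of an Il10-positive cell in libraries 5 and 6, 0.157% of a matched cell, and 1.43% of an Il10-positive cell in libraries 7 and 8. Of the 509 cells 31 (6.09%, 4.18% to 8.53%) reached 0.791%, the 5th percentile of libraries 7 and 8, as did 38 of 2545 matched cells (1.49%, 1.06% to 2.04%). By library it was 7.66% against 1.69% in library 5 and 4.60% against 1.30% in library 6. By Il10 UMIs it was 3.34% of cells with 1, 12.4% with 2, and 9.89% with 3 or more. None of the 509 cells, and none of the matched cells, was as low in the low genes as 95 of 100 Il10-positive cells of libraries 7 and 8, whose 95th percentile was 0.365%. Thus none of the 509 cells lay within both ranges of libraries 7 and 8. The low genes were picked by their difference between the libraries, so the lack of such cells was largely set by that choice. Within libraries 7 and 8 the median of the low genes was 0.0733% in Il10-positive and 0.0905% in Il10-0 cells. The 156 Il10-positive cells set aside by the limits were not placed. The median of the low genes was 1.76% in the 509 cells and 1.75% in matched cells, and without Ly6d it was 1.17% and 1.25%.

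**Figure D5:**
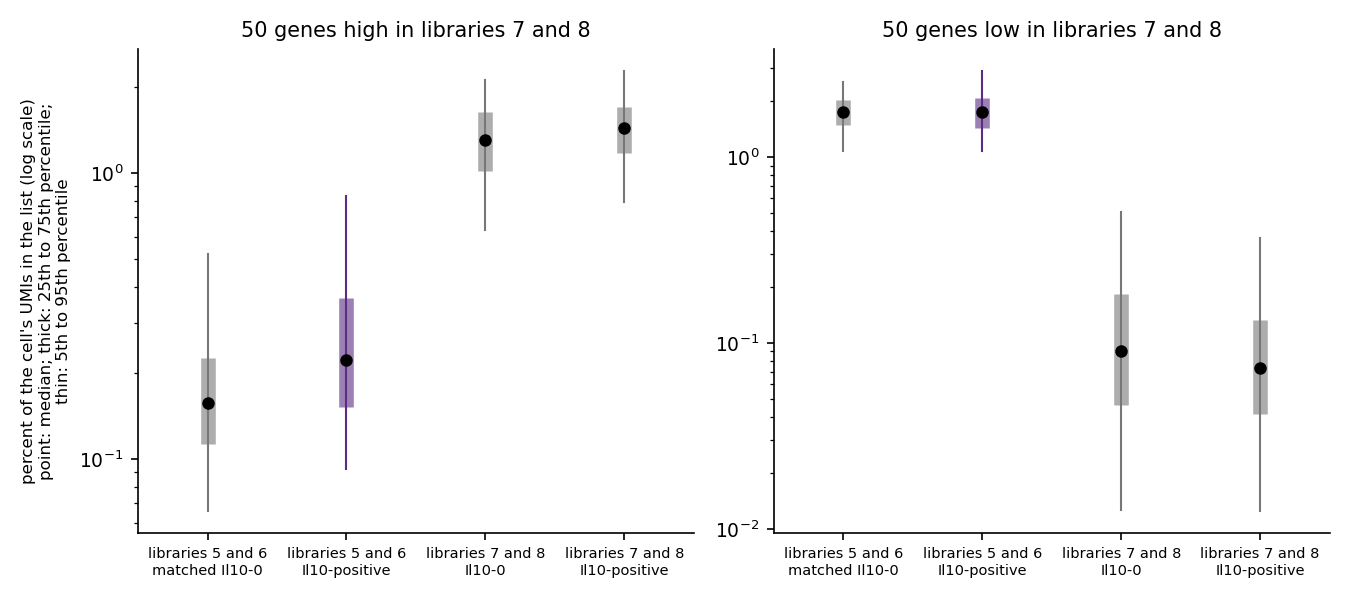
Percent of a cell's UMIs (y axis, log scale) in the 50 genes high (left) and the 50 genes low (right) in Il10-positive cells of libraries 7 and 8, for 4 sets of cells (x axis). Points are medians, thick bars the 25th to 75th and thin bars the 5th to 95th percentiles over cells. Il10-positive cells of libraries 5 and 6 (purple) lie above matched cells in the high genes (medians 0.222% and 0.157%) and have nearly the same median in the low genes with Ly6d included (1.76% and 1.75%).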

How the data were processed

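The deposited values were counts of UMIs per gene and cell that the authors made with Cell Ranger (version 3.1.0, per the submitters' processing notes) on mouse mm10 with Ensembl 93 genes from Chromium 3′ v3 libraries of 2 Bregs-CpG and 2 Bregs-TLR samples, and combined with CellRanger aggr, which evens out depth. Barcodes were assigned to the last 19920 of 35989 columns. This assignment was not proven, the border between libraries 5 and 6 was not checked, and the other 16069 columns were not used. Counts were not rescaled, no doublet caller was run, and cells with at least 1000 genes and under 10% mitochondrial UMIs were kept.

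UMIs were summed over Il10-positive cells and over 5 Il10-0 cells each, taken without replacement from the same library by nearest total UMIs, and divided by all UMIs of the group. Log2 ratios have exact conditional, CPM exact Poisson, and shares Clopper-Pearson intervals at 95% (Python version 3.11.15, NumPy version 2.4.6, SciPy version 1.17.1, and pandas version 2.3.3). The script was tested on simulated Poisson counts of summed UMIs, which held no variation between cells and so cannot test for it. The number of UMIs limits precision, with 7089436 UMIs in Il10-positive and 33185124 in matched cells. Genes named were those of 22 lists and up to 15 at each end past 1.5-fold in both libraries; the other higher genes, Lig1, Wnt10a, and genes of the libraries 7 and 8 profile were named after their values were seen. Members and lists were chosen with earlier results of these data known. Positions are from GENCODE vM21 on GRCm38. Alternatives in matching, limits, denominator, and minimum are given in the closing section. Some genes of the lists and of those past 1.5-fold are counted but not reported here by name.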

Additional observations from a re-analysis of the deposited data

Results flagged for a closer look

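In libraries 7 and 8, 2448 Il10-0 cells were each paired with 1 Il10-positive cell of like total UMIs. For 4 genes that were at least 1.5-fold higher in Il10-positive cells of libraries 5 and 6, the log2 ratio was below 0 in both of these libraries, and in each case the difference was not tested. Apoe had a log2 ratio of -1.18 (-1.40 to -0.96) in libraries 7 and 8, with 10.0 CPM against 25.1 CPM in library 7 and 12.4 CPM against 24.5 CPM in library 8, beside 0.99 in libraries 5 and 6, where 5 cells held 74.0% of its UMIs. Marcksl1 had a log2 ratio of -0.0803, Iars of -0.0236, and Hspa9 of -0.0292 in libraries 7 and 8, and for these 3 genes the interval over libraries 7 and 8 includes 0.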

How the results depend on the processing

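The number of genes at least 1.5-fold apart in both libraries (18 higher and 3 lower) depended on the settings. Counts higher and lower, with how many of the 18 and 3 they held in parentheses, were 15 and 6 (8 and 3) with 1 matched cell, 25 and 6 (16 and 3) with 10, 43 and 12 (15 and 3) without matching, and 17 and 5 (13 and 3) with all Il10-0 cells weighted by depth class. They were 97 and 35 (13 and 2) for cells with at least 2 Il10 UMIs, 8 and 1 (7 and 1) without the limits on Ccl3 plus Ccl4, Jchain, and mitotic genes, 11 and 3 (9 and 1) with stricter limits, and 32 and 18 (13 and 2) without the 10% deepest cells. So 10 of the 18 higher genes did not pass with 1 matched cell, 11 without the limits, and 9 with stricter limits. The counts were 27 and 15 (14 and 3) without mitochondrial, ribosomal protein, and immunoglobulin genes in the denominator, 35 and 10 (16 and 2) with per-cell fractions, 37 and 9 (18 and 3) at a minimum of 10 CPM, 8 and 1 (8 and 1) at 50 CPM, 313 and 341 (18 and 3) at 10 UMIs, and 2 and 0 (Nfkbid and Tfrc) at 2-fold. A limit of 5% mitochondrial UMIs kept 12 Il10-positive cells and gave 414 and 273 (1 and 0), with log2 ratios of -0.27 for Gadd45b and -1.23 for Mir155hg and no UMI of Apoe or Gk in those 12 cells. With all matched cells within 10% of the member's UMIs, a setting chosen after seeing the data, 42 and 16 genes passed, 16 and 2 of them shared with the 18 and 3. Leaving out library 5 gave 41 higher and 14 lower genes and leaving out library 6 gave 59 and 17, since 1 library alone then sets the call. Other causes were not tested. The share of Il10-positive cells (6.35%) was 2.24% at 2 UMIs or more, 7.46% without the limits, 5.53% with stricter limits, 4.84% under 5% mitochondrial UMIs, 5.20% without the deepest cells, and 3.64% after thinning. Of 334 values of the 21 genes under the alternatives, those of Gadd45b and Mir155hg in the 12-cell setting had a changed direction, and Apoe and Gk, without a UMI there, gave no ratio and are not among the 334. Outside the 12-cell setting, list medians ran from -0.66 to -0.35 for follicular and homing genes, from -0.39 to -0.23 for MHC class II, from 0.30 to 0.62 for immediate-early genes, from 0.27 to 0.58 for the unfolded protein response, and from 0.05 to 0.54 for DNA replication genes. The interferon, marginal zone, and myeloid lists had medians on both sides of 0. The summed level of the 50 genes low in libraries 7 and 8 had a log2 ratio of 0.033, and without Ly6d, left out after seeing the data, one of -0.063. No paired analysis was possible because the barcodes name no sample and no replicate number by which samples could be paired, and the cells were compared within each library instead.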
